A study of Rattus norvegicus with 6 samples.

Results

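A pair of pooled libraries of whole rat liver (Rattus norvegicus) was compared, one made 1 day after ischemia reperfusion (IR) and one from healthy untreated animals (control). They are 2 of the 6 libraries of the series and were chosen by their labels. The other 4 are liver after IR with treatment, and control, IR and treated IR libraries of hepatocytes that were isolated by collagenase perfusion from additional animals. In IR the portal vein was clamped for a time and then released, and the IR animals of the comparison received no drug. Treated IR animals were given etanercept at 9 mg/kg before IR and nitroglycerin at 6 µg/kg/min before and during it. Each library holds the pooled RNA of 3 animals, so each group holds 1 library and no difference below has a replicate check. Control animals are labelled healthy and untreated, so the comparison also sets operated against unoperated animals. The sources used here give neither strain nor sex nor age of the animals.

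Ischemia followed by the return of blood injures the liver in stages, as background. Oxygen shortage first stresses hepatocytes and sinusoidal endothelium, and reperfusion then brings oxidants, activated Kupffer cells and arriving leukocytes. In the following day surviving hepatocytes typically change their output of plasma proteins and metabolic enzymes, while inflammatory and repair cells add transcripts of their own. The series addresses whether acting on vasoconstriction or inflammation changes this course, and the comparison of untreated IR with control shows the state of the liver on which the drugs were tried.

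Of 26689 gene IDs, 12729 had a read in liver control and 14456 in liver IR. Reads in genes numbered 1945331 in control and 7160610 in IR, which is 3.68 times as many. The detection limit of 3 reads, taken as what a count of 0 allows, equals 1.30 CPM (reads scaled to a common library size) in control and 0.443 in IR after scaling by library composition (TMM). At least 50 reads over both liver libraries were held by 7440 genes, which took 98.7% of gene reads in control and 98.9% in IR. A gene is called higher or lower below when its scaled levels differ at least 2-fold and the exact 95% interval of the ratio excludes equality. That interval covers counting error only, not the difference between pools of animals. No ID could be given a symbol, because the RefSeq gene table used here lists no Ensembl IDs to match (0 of 26689 matched). Genes therefore appear below as groups defined by their levels, and 4 IDs are printed. For the same reason the tissue label was not checked against marker genes.

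One property of the libraries bears on the results below. For most of the first-ranked genes higher in liver IR (12 of 14 measured in hepatocytes) and 5 of 14 lower ones, the hepatocyte libraries were ordered the other way round. In the 4 IDs printed below, liver control then resembled hepatocyte IR, and liver IR resembled the remaining libraries. The labels give no property that liver control and hepatocyte IR share and the other 4 libraries lack. Whether the pools differ in their animals, or whether labels of pools were exchanged, was not tested. Different animals in the liver pools, or an exchange that involves a liver label, would change what the liver ratio of IR to control means. In liver alone neither can be told apart from the IR operation. An exchange of hepatocyte labels alone would change the hepatocyte ratios and leave the liver ratio as it is.

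ENSRNOG00000028896 ranked first among the genes higher in liver IR. Liver control had 0 reads of it, while untreated IR had 810 and treated IR 968. Hepatocyte control had 440 reads, IR 1 and treated IR 923. Its scaled level was thus 119.7 CPM in liver IR, 128.7 in liver treated IR, 136.4 in hepatocyte control and 427.9 in hepatocyte treated IR, and it was all but missing from the remaining pair. Against the limit of 3 reads in the control library, liver IR was at least 91.7-fold higher, and the lower bound of the exact 95% counting interval was 74.4-fold. In hepatocytes the direction was opposite, with a control level 707-fold above that after IR (exact 95% counting interval 126 to 27971, with 1 read in IR).

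ENSRNOG00000030387, the next in rank, was among the abundant transcripts of the liver. Liver control held 463.9 CPM of it, against 9356 after IR and 7033 after treated IR. Hepatocyte control held 9991 CPM, against 599.2 after IR and 14830 after treated IR. Liver control and hepatocyte IR were the low libraries again, and the other 4 lay more than 10 times higher. The ratio of liver IR to liver control was 20.2 (exact 95% counting interval 19.0 to 21.4), and hepatocyte control stood 16.7-fold above hepatocyte IR (16.1 to 17.3).

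Among genes lower in liver IR, the first by rank was ENSRNOG00000022268, with 82 reads in liver control against 2 after IR and 6 after treated IR. Hepatocytes held 4 reads of it as control, 38 after IR and 0 after treated IR. Its level in liver control was 121-fold that in liver IR, with a wide counting interval of 32.4 to 1014. In hepatocytes IR was 5.92-fold above control (2.13 to 22.8). Both low and high counts of this gene are small, so its folds are rough.

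ENSRNOG00000013552 was measured far more precisely. It stood at 1162 CPM in liver control, and at 64.9 after IR and 58.9 after treated IR. Hepatocyte control had 64.8 CPM, IR 933.5 and treated IR 107.5. Liver control was 17.9-fold above liver IR (exact 95% counting interval 16.2 to 19.9), and hepatocyte IR was 14.4-fold above hepatocyte control (12.5 to 16.6). The high libraries of this gene are the low ones of ENSRNOG00000030387.

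**Figure D1:**
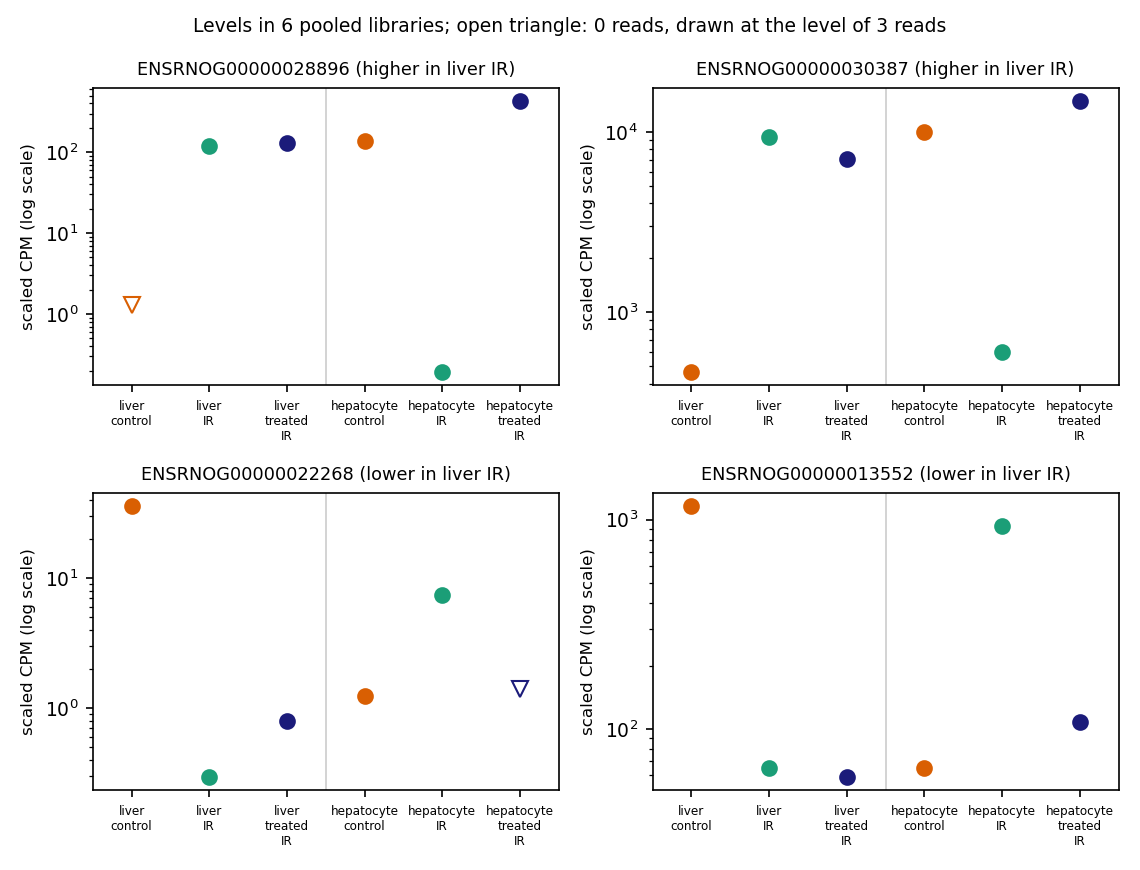
Scaled CPM (log axis) of the 4 IDs in each of the 6 pooled libraries, 1 point a library, with open triangles for 0 reads drawn at the level of 3 reads. Liver control and hepatocyte IR lie on one side and the other 4 libraries on the other in each panel, where both triangles mark limits and not levels.

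Over all 7440 genes, 259 were higher in liver IR (3.48%) and 112 lower (1.51%), together 4.99%. Most transcripts were close to equal, with 81.1% of genes within 1.5-fold and log2 ratios with a median of 0.05 and quartiles of -0.22 and 0.32. The higher genes had a median ratio of 2.38-fold, and the lower ones a median of 2.32-fold in favour of control. At least 4-fold differences were seen for 35 higher and 9 lower genes, and at least 8-fold for 15 and 4. A further 1560 genes differed by less than 2-fold although equality lay outside their counting interval. The split between directions depended on scaling: 69.8% of called genes were higher with TMM factors, and 20.3% (93 higher, 366 lower) with library totals alone, which shift every log2 ratio by -0.32. Thinning the deeper IR library to the control total left 135 higher and 105 lower, 56.2% higher.

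**Figure D2:**
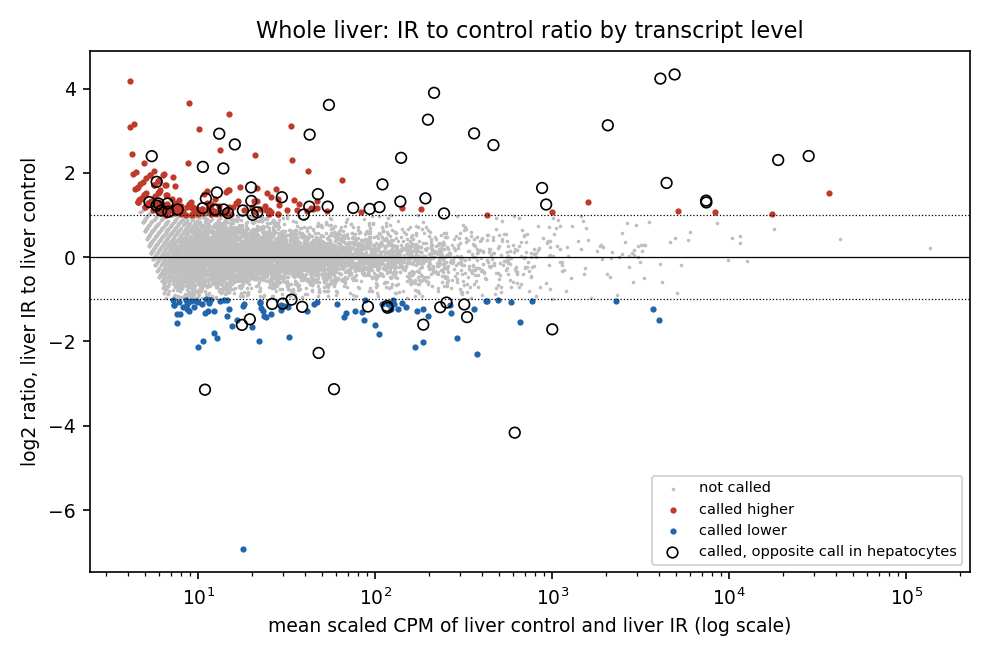
Log2 ratio of liver IR to liver control against the mean scaled CPM of both libraries (log axis) for genes with at least 50 reads, apart from 2 with 0 reads in control. Red and blue points are the genes called higher and lower, and dotted lines mark 2-fold. Open circles mark genes with an opposite call in hepatocytes, most of them between 2- and 4-fold apart in liver. Circles include 11 of the 17 higher and 1 of the 5 lower genes with 5000 reads or more.

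The spread of ratios changed with abundance in both its size and its sign. Among the 2051 genes with fewer than 100 reads, 119 were called higher and 32 lower. At 50 reads a higher call needs at least 44 reads in IR against 6 in control, a ratio of 2.49, and a lower call at most 29 against 21. Lower calls outnumbered higher ones from 500 reads to just under 5000. Of the 688 genes below 1000 reads in that range, 12 were higher (1.74%) and 15 lower (2.18%), and of the 656 at or above it 12 were higher (1.83%) and 23 lower (3.51%). The 172 genes with 5000 reads or more had 17 higher (9.88%) and 5 lower (2.91%). For these abundant genes the interquartile range of log2 ratios was -0.20 to 0.52, while the median width of the counting interval was 0.139. The ratios of abundant transcripts were thus spread more widely than counting error, and how much of this lies between pools of animals is unknown. Of the 259 higher genes 181 had fewer than 200 reads, and of the 112 lower genes 53. The count of reads over both libraries weighs the deeper IR library more, which favours higher calls near the minimum. With a minimum on the mean scaled level instead (5 CPM), 233 genes were higher (3.06%) and 149 lower (1.95%).

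A few abundant genes carried most of the change in composition. The share of reads that would have to move to turn one library into the other was 17.7 percentage points, and the 10 genes with the largest gains held 72.2% of the gained points. The 10 most abundant genes of each library took 30.5% of reads in control and 38.9% in IR. At the same time 75% of the 7440 genes had a smaller share of reads in IR than in control, and TMM scaling moves the centre of the ratios back toward equality by construction. Of the 10 genes with most reads over both libraries, 4 were called higher, 0 lower and 6 neither.

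The largest gain was that of the fourth most abundant gene. It rose from 1.06% of the control reads (1.04 to 1.07 by the 95% Wilson method) to 4.46% in liver IR (4.45 to 4.48). Its scaled level in liver was 8952 CPM as control, 47247 after IR and 25778 after treated IR, and in hepatocytes 46763, 9521 and 56720 CPM in that order. Here too liver control and hepatocyte IR were the low libraries, 5.28-fold below liver IR and 4.91-fold below hepatocyte control.

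The fifth most abundant gene followed the same order. Liver control had 6358 CPM, liver IR 31417 and treated liver 21932. Hepatocyte control had 30323 CPM, hepatocyte IR 6605 and treated hepatocytes 36291. Both genes entered the list of higher genes with ratios near 5, yet neither separated IR from control in the same direction in hepatocytes.

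The third most abundant gene behaved differently. It made up 2.24% of reads in liver control (2.22 to 2.26) and 5.15% in liver IR (5.13 to 5.17). Its level in liver was 18938 CPM as control, 54481 after IR and 15982 after treated IR, and in hepatocytes 27581, 15520 and 19730 CPM. Only the liver IR library stood out, 2.88-fold above control (exact 95% counting interval 2.85 to 2.91), and the other 5 libraries lay between 15520 and 27581 CPM.

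The most abundant gene of both libraries had the largest loss of share, from 14.9% to 13.8% of reads, but its scaled level was 1.16-fold higher in IR. Next came a gene at rank 37, called lower, at 5930 CPM in liver control, 2098 after IR and 1442 after treated IR. Its hepatocyte levels were 3781 CPM as control, 5174 after IR and 3814 after treated IR. Both livers after IR were the lowest libraries of this gene, and liver control and hepatocyte IR the highest. The next loss, of a gene at rank 26 that was not called, had the same highest libraries, with 6575 CPM in liver control and 9314 in hepatocyte IR against 3157 to 5109 in the other 4.

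Genes called in liver were then read in the IR and control libraries of hepatocytes, which share no library with the liver comparison. At least 50 reads in both pairs were held by 6805 genes, of which 430 were lower (6.32%) and 589 higher (8.66%) in hepatocyte IR than in hepatocyte control. Of the 184 genes higher in liver IR and measured in hepatocytes, 55 were lower in hepatocyte IR (29.9%) and 20 higher (10.9%). The 55 make up 12.8% of the genes lower in hepatocytes. Of the 103 genes lower in liver IR, 19 were higher in hepatocyte IR (18.4%) and 3 lower (2.91%), and the 19 make up 3.23% of the genes higher in hepatocytes. Opposite calls thus outnumbered calls in the same direction on both sides.

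Opposite calls were more frequent among genes at least 4-fold apart, although most of the 55 and 19 lay between 2- and 4-fold. Of the 30 measured genes at least 4-fold higher in liver IR, 18 were lower in hepatocyte IR and 3 higher. Of the 8 at least 4-fold lower in liver, 4 were higher in hepatocyte IR and 0 lower. At 8-fold 7 of 13 higher genes were opposite (53.8%) and 1 was in the same direction, and 3 of 3 lower genes were opposite. Among the 15 first-ranked higher genes 14 were measured in hepatocytes, with 12 opposite calls and 0 in the same direction. The 15 first-ranked lower genes had 5 opposite calls and 0 in the same direction among 14 measured. Of the 17 higher genes with 5000 reads or more, 11 were lower in hepatocyte IR and 0 higher, where 15.7% of all genes of that abundance were lower in hepatocyte IR. Of the 5 lower genes of that abundance 1 was opposite. With library totals alone 30 of 66 higher genes were opposite (45.5%) and 53 of 339 lower genes (15.6%), beside 5.5% of all genes lower and 9.8% higher in hepatocytes.

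**Figure D3:**
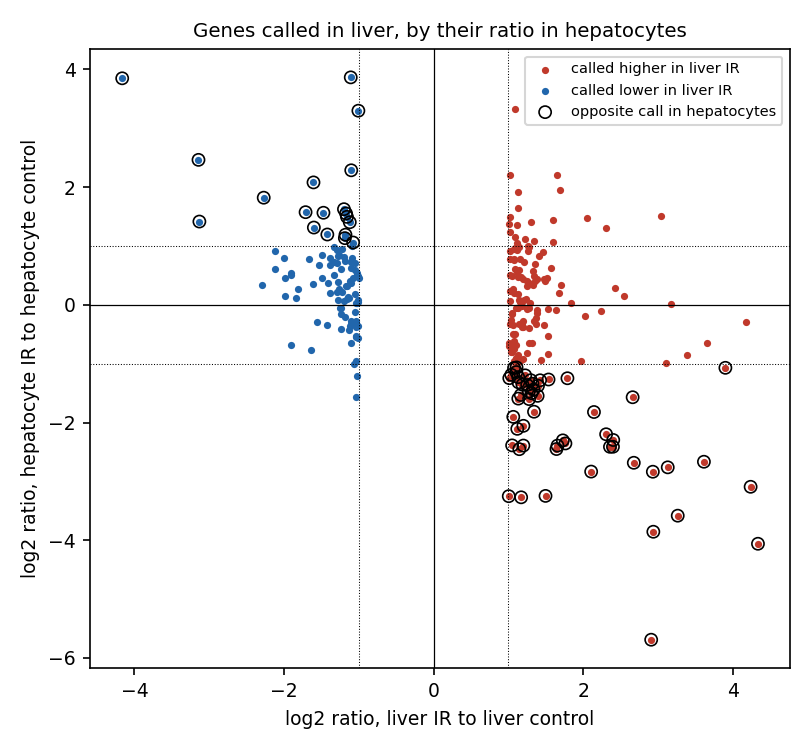
Log2 ratio of IR to control in hepatocytes against that in liver, for genes called in liver with at least 50 reads in both pairs and reads in all 4 libraries. Circles mark opposite calls, 55 at lower right (1 of them, with 0 reads in liver control, is not drawn) and 19 at upper left, and they include most of the genes far from the vertical axis.

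The 55 opposite genes that were higher in liver had a median level of 13.9 CPM in liver control and 59.0 in liver IR. Their median was 68.2 CPM in hepatocyte control and 12.7 in hepatocyte IR. These 4 libraries chose the genes, so their order is a description. The treated libraries took no part in the choice, and there the median was 44.4 CPM in liver and 86.7 in hepatocytes. As a sum, the 55 genes took 3.46% of reads in liver control, 12.7% after IR, 11.4% after treated IR, 13.5% in hepatocyte control, 3.13% in hepatocyte IR and 15.4% in hepatocyte treated IR. The Wilson intervals of all these shares lie within 0.05 points of the value. Both treated libraries thus sat with liver IR and hepatocyte control.

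The 19 opposite genes that were lower in liver gave the mirror image. Their median was 126 CPM in liver control, 55.9 in liver IR, 41.5 in hepatocyte control and 135 in hepatocyte IR. In the treated libraries, which did not choose them, it was 50.5 CPM in liver and 50.1 in hepatocytes.

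**Figure D4:**
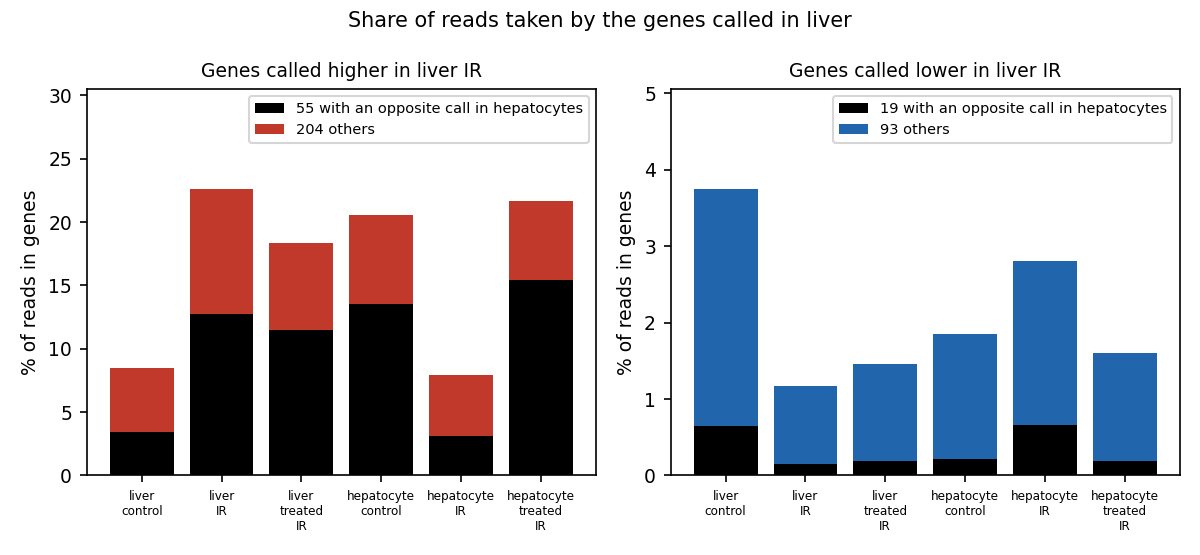
Percent of gene reads in each of the 6 libraries taken by the 259 genes called higher (left) and the 112 called lower (right) in liver IR, with the genes that have an opposite call in hepatocytes in black. Higher genes took 8.47% in liver control and 7.92% in hepatocyte IR, and between 18.4% and 22.6% in the other 4 libraries. Liver control and liver IR chose these genes, and abundant genes weigh most in the sums. The median level of the higher genes in hepatocytes was 10.5 CPM as control, 9.07 after IR and 11.1 after treated IR.

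Without the opposite genes, 204 genes were higher and 93 lower in liver IR. The control and IR libraries of liver and of hepatocytes took part in this choice, so their medians are a description. Removing opposite calls in itself draws hepatocyte control and IR together. The 204 had a median of 4.79 CPM in liver control, 11.5 after IR and 11.7 after treated IR. Their hepatocyte medians lay close together, at 7.75 CPM as control, 8.49 after IR and 7.88 after treated IR. The 93 lower genes had a median of 35.2 CPM in liver control, 13.7 after IR and 23.5 after treated IR, and 21.7, 28.4 and 20.9 in hepatocyte control, IR and treated IR. Of the 204 higher genes 75 had too few reads in hepatocytes for a call there, against 9 of the 93 lower genes. Among all 7440 genes 6805 had enough reads there. The higher genes were also the scarcer ones in liver, with 181 of all 259 below 200 reads against 53 of all 112 lower genes.

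Transcripts that hepatocytes nearly lack were looked at as a group, since whole liver also holds endothelial, stellate, biliary and immune cells. Genes were taken that lay below 1 CPM in each of the 3 hepatocyte libraries and at a mean of at least 5 CPM over the liver pair, a minimum that weighs both livers equally. Of these 80 genes, 11 were higher in liver IR (13.8%) and 2 lower (2.5%), beside 3.06% and 1.95% of all 7624 genes above the minimum. Their median log2 ratio was 0.42, against 0.03 in the other genes. A ratio above 1 was found for 63 of the 80 and for 4023 of the 7544 others. Their median level was 5.66 CPM in liver control, 8.20 after IR and 8.57 after treated IR, so these are scarce transcripts. As a sum they took 0.083% of reads in liver control and 0.076% in liver IR. These are shares of unscaled library totals, which shift every log2 ratio by -0.32 against TMM scaling. The sum is thus on another scale than the median and cannot be set against it without allowing for that shift. In bulk tissue more cells of a type and more RNA per cell cannot be told apart.

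The size of this difference depended on the minimum. With at least 50 reads over both libraries, 17 of 77 nearly absent genes were higher (22.1%), beside 3.48% of all 7440 genes. Their median was 0.69. Scarce genes pass that minimum mainly through the deeper IR library, so those values are partly fixed by it. Library totals left 11 of the 77 higher (14.3%, beside 1.25% of all genes) with a median of 0.37, where the median of all genes was -0.27. At a mean level between 5 and 10 CPM, 11 of 67 nearly absent genes were higher (16.4%) and 1 lower, against 4.66% and 2.83% of 1909 others. The medians there were 0.42 and 0.06. The groups were near in depth but not alike, with a median of 63 reads against 66 and a median level of 5.96 CPM against 7.23.

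**Figure D5:**
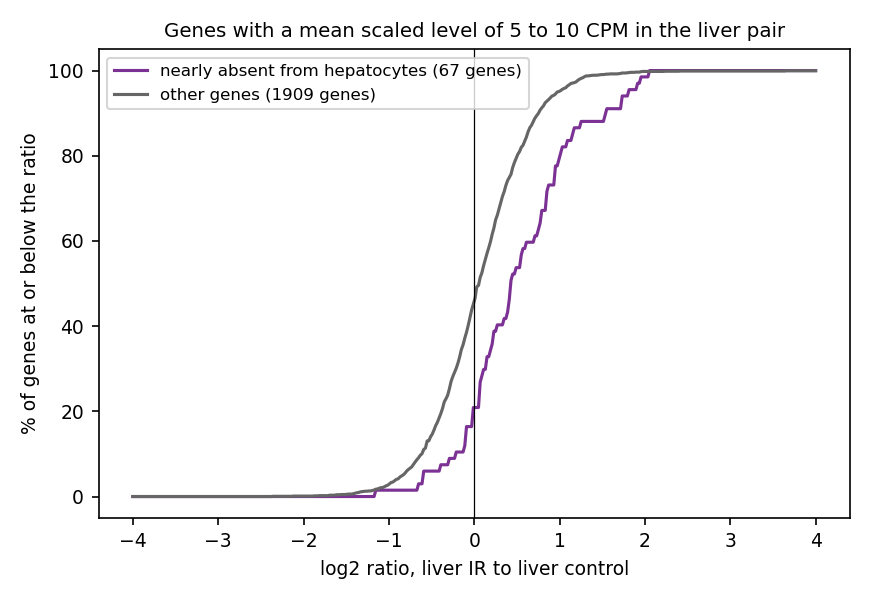
Cumulative percent of genes at or below each log2 ratio of liver IR to liver control (axis from -4 to 4), for genes with a mean level between 5 and 10 CPM in the liver pair that were below 1 CPM in all 3 hepatocyte libraries (67 genes) and for the other 1909. The curve of the nearly absent genes lies to the right over most of the axis, with medians of 0.42 and 0.06.

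A wider group gave a like difference. Of 313 genes at least 4-fold higher in liver treated IR than in hepatocyte treated IR, with a mean of at least 5 CPM in the liver pair, 38 were higher in liver IR than in control (12.1%) and 9 lower (2.88%). Of the other 7311 genes 2.67% were higher and 1.91% lower, and the median log2 ratios were 0.40 and 0.03. With at least 50 reads the counts were 46 and 6 of 306, beside 213 (2.99%) and 106 (1.49%) of the other 7134 genes. The treated libraries that define this group were not part of the comparison, but the treated liver had also undergone IR. Choosing genes high in treated liver can therefore favour genes high in liver IR. The group can also share genes with the nearly absent group, so it is not separate support.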

How the data were processed

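Poly(A)-selected RNA was made into libraries with an Ion Total RNA-Seq kit, per the labels' protocols. Each deposited file lists unnormalised read counts by Ensembl gene ID for 1 library. The submitters' processing notes name TopHat2 2.0.13 and HTSeq 0.6.1, without their roles. The sources used here give no genome build, annotation release or strand setting, so reads of overlapping, antisense or near-identical genes may be split or lost. Summary lines were left out: reads outside genes made up 7.66% of uniquely aligned reads in liver control and 7.00% in liver IR, and ambiguous reads 0.369% and 0.446%.

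Libraries were scaled by edgeR 4.0.16 TMM factors (R 4.3.3) from the 9932 genes that filterByExpr kept over 6 libraries with a minimum count of 10. Ratios were given exact binomial (Clopper-Pearson) intervals with scipy 1.17.1. With 1 library a group no test was run. Reads carry no molecular identifiers, so intervals and floors cover counting error only. Interval code was tested on simulated counts. The comparison, the 45 gene lists, the rule for named genes and the alternatives were chosen with earlier results of these data known. Since 0 IDs matched a symbol, the lists were not run. The 4 IDs printed are the first 2 in each direction by the interval bound nearest to equality. Groups defined by hepatocyte levels were added after the data were seen. Alternatives were library totals, DESeq2 1.42.0 size factors, TMM factors of the liver pair, thinning, other read minimums and folds, and a 99% interval.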

Additional observations from a re-analysis of the deposited data

Results flagged for a closer look

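The IR to control ratio pointed in opposite directions in liver and hepatocytes for all 4 printed IDs, and with 1 library a group in each preparation that difference was not tested. In hepatocytes the log2 ratio was -9.46 for ENSRNOG00000028896 and -4.06 for ENSRNOG00000030387, both higher in liver IR. It was 2.56 for ENSRNOG00000022268 and 3.85 for ENSRNOG00000013552, both lower in liver IR. Opposite calls covered 55 genes that were higher in liver but lower in hepatocytes, and 19 with the reverse. Non-unique alignments, left out of the counts, were 60.1% of all alignments in liver IR, 46.3% in liver control and between 41.1% and 46.1% in the other 4 libraries. Their part in the ratios was not tested.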

How the results depend on the processing

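The counts of 259 higher and 112 lower genes came to 246 and 118 with DESeq2 size factors, 232 and 128 with TMM factors of the liver pair, and 189 and 109 with a 99% interval. Library totals gave 93 and 366, and thinning the IR library 135 and 105. A minimum of 20 reads gave 372 and 194, of 200 reads 78 and 59, and of 1 read 387 and 263. The 1.5-fold rule gave 604 and 412, and the 4-fold rule 35 and 9. After the data were seen, a minimum mean of 5 CPM was added (233 and 149). Library totals gave 30 opposite genes higher in liver in place of 55, and 53 lower in liver in place of 19. They left 11 of the 77 nearly absent genes higher (14.3%, beside 1.25% of all genes) in place of 17 (22.1%, beside 3.48%). With the main scaling, a minimum mean of 5 CPM gave 11 of 80, beside 3.06% of all 7624 genes. With the same scaling, the wider group of liver genes with at least 50 reads gave 46 of 306, beside 2.99% of the other 7134. Library totals act by the shift they put on every ratio, and the minimums and folds by the genes they admit. All 4 printed IDs kept their direction under each scaling. Thinning left ENSRNOG00000022268 with 0 reads in IR and gave it no value. Medians of gene lists were not run. No paired analysis was possible because each group has 1 library. Depth limits calls for genes near 50 reads to ratios of about 2.49 when higher and 2.13 when lower.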
